A study of Mus musculus with 4 samples.

Results

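Hox genes encode the homeobox transcription factors that give cells their position along the body axis, and adult fat depots keep a part of this embryonic pattern. In the mouse they lie in the clusters Hoxa, Hoxb, Hoxc and Hoxd on separate chromosomes. Within a cluster the genes are numbered by paralog group, and genes with low numbers act towards the head and genes with high numbers towards the tail, in the order in which they lie on the chromosome. HOX proteins bind DNA together with PBX and MEIS cofactors, and Polycomb and Trithorax proteins keep each gene silent or active after the embryo has set the pattern.

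The Hox genes were read from arrays of gonadal white adipose tissue (WAT) of male NMRI mice. All rows of the deposited table whose gene symbol was Hox, a letter from a to d and a number were taken, which gave 38 of 21225 probe sets, with 10 in Hoxa, 10 in Hoxb, 9 in Hoxc and 9 in Hoxd. The mice on FD (fat diet, 18% fat) had received this diet for 8 days before they were killed at the age of 48 days, and the mice on ND (normal fat diet, 3.3% fat) were of the same strain, sex and age. All had been fed the standard diet up to the age of 40 days. RNA of 3 mice was pooled for each diet and each of the 2 pools was hybridised to 2 arrays, so that duplicate arrays repeat labelling and hybridisation but not mice. The diets were therefore compared by size and not by a test.

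Values are log2 expression values from RMA, 1 probe set for each gene, and a difference is the mean of the FD arrays minus the mean of the ND arrays on the log2 scale. A gene was called when it differed by 1.5-fold or more, had no FD array within the range of the ND arrays, and averaged 6 or more over all 4 arrays. All 38 Hox genes had a value of 6 or more in each of the 4 arrays, which holds for 85.2% to 86.2% of all probe sets of an array. Duplicate arrays of the Hox genes differed by a median of 0.06 in FD and of 0.08 in ND. The adipose part of the tissue label was borne out, since the 11 measured adipocyte genes, among them Adipoq, Plin1 and Lep, lay between 12.08 and 14.38 in the 4 arrays. These genes do not show which depot was taken or that the pools held the same mix of cells. Of 18 measured genes of the epididymal epithelium, given below, 16 were at the level of 6 or more. Of these, 13 were lower in FD, beside 4.28% of all probe sets at that level. However, 7 of the 13 had an FD mean under 6 and reached the level through the ND arrays alone.

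Of the 38 Hox genes, 3 were lower in FD and none was higher. These were Hoxb8, Hoxb6 and Hoxd8, and they were part of a wider pattern in which all measured genes of groups 2 to 9 in the Hoxb and Hoxd clusters had negative differences while 11 of their 12 paralogs in Hoxa and Hoxc had positive ones, the exception being Hoxc9. The 12 Hoxb and Hoxd genes of these groups lay between -0.84 and -0.24 with a median of -0.39, and the 12 Hoxa and Hoxc genes of the same groups lay between -0.08 and 0.21 with a median of 0.08. These groups were delimited after the values had been seen. Of the 12 Hoxa and Hoxc genes, 7 had FD arrays above the ND arrays, 1 had them below and 4 had overlapping arrays. Over all 18211 probe sets at the level of 6 or more, 10291 differences were positive and 7917 negative, with a median of 0.03. The 3 called genes are 7.89% of the Hox genes, against 4.28% of the 18211 probe sets at the level of 6 or more, and for calls in the other direction the share is 0 against 1.33%. The call count alone is thus near the background, and it is the arrangement by cluster that is described below.

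**Figure D1:**
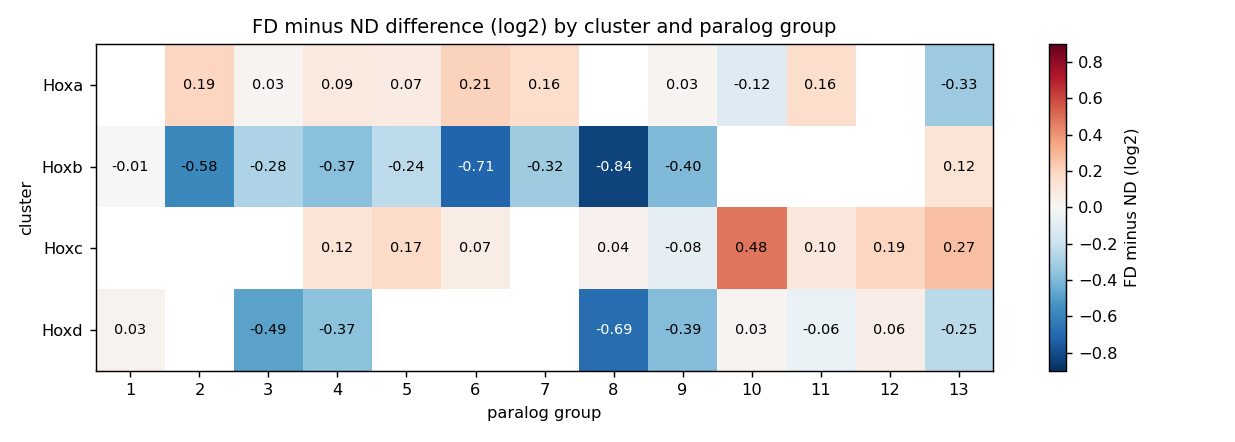
Difference between FD and ND on the log2 scale for each Hox gene, with clusters as rows and paralog groups as columns. Blue cells are lower and red cells higher in FD, and blank cells hold no value. The values of Hoxb from group 2 to 9 and of Hoxd from group 3 to 9 are negative, down to -0.84. In the same columns the Hoxa and Hoxc values lie between -0.08 and 0.21.

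Hoxb8 (Entrez gene 15416), which acts in the patterning of the thorax and whose loss in mice leads to excessive grooming, had values of 8.28 and 8.45 in the FD arrays, against 9.14 and 9.26 in the ND arrays. Both FD arrays were lower than both ND arrays, and the gap between the nearest arrays was 0.70. Its mean was 8.36 ± 0.12 in FD and 9.20 ± 0.08 in ND (SD, n = 2 arrays of 1 pool each), a difference of -0.84 that corresponds to 1.79-fold lower expression in FD. A difference this far below 0 or farther was found in 2.68% of the probe sets at the level of 6 or more.

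Hoxb6 (Entrez gene 15414), a gene of the trunk and of the lateral mesoderm, had values of 9.37 and 9.45 in the FD arrays, against 10.03 and 10.22 in the ND arrays. The groups did not overlap, and the difference was -0.71, or 1.64-fold lower in FD. Hoxd8 (Entrez gene 15437), the Hoxd paralog of Hoxb8, had values of 8.28 and 8.40 in the FD arrays, against 9.03 and 9.02 in the ND arrays. Again both FD arrays were the lower ones, with a difference of -0.69 or 1.61-fold, and the duplicates of either diet lay within 0.12 of each other.

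Hoxb2, which acts in the segments of the embryonic hindbrain, stayed just under the threshold. It had values of 8.21 and 8.21 in the FD arrays, against 8.74 and 8.84 in the ND arrays. The difference was -0.58, and it was called lower without ND array 1, at -0.63, and after cyclic loess, at -0.60. With the threshold at 1.3-fold, 7 Hox genes were lower, namely Hoxb2, Hoxb6, Hoxb8, Hoxb9, Hoxd3, Hoxd8 and Hoxd9, which is 18.4% of the Hox genes against 7.32% of all probe sets at that level. All 7 are Hoxb or Hoxd genes of groups 2 to 9, but these groups were delimited after the same differences had been seen. In the other direction Hoxc10 alone passed, or 2.63% against 4.77%.

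The remaining Hoxb genes between Hoxb2 and Hoxb9 were shifted in the same direction by smaller amounts. Hoxb9, a gene of thoracic identity, had values of 8.38 and 8.33 in the FD arrays, against 8.76 and 8.75 in the ND arrays, a difference of -0.40. Hoxb4, known for expanding blood stem cells when overexpressed, had values of 8.39 and 8.48 in FD, against 8.84 and 8.77 in ND, a difference of -0.37. Neither gene had overlapping arrays, and both differences exceeded the spread of the duplicates.

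Hoxb7, whose promoter is widely used to drive transgenes in the Wolffian duct, the embryonic duct that forms the epididymis, had values of 8.70 and 8.70 in FD, against 8.95 and 9.08 in ND. The difference was -0.32. Hoxb3 had values of 8.59 and 8.48 in FD, against 8.76 and 8.86 in ND, and Hoxb5, which sets the position of the shoulder girdle in mice, had values of 8.68 and 8.79 in FD, against 9.02 and 8.93 in ND. With differences of -0.28 and -0.24 these 2 were the smallest of the run, and in both of them the FD arrays still lay below the ND arrays. The genes at the ends of the cluster did not share the shift. Hoxb1, a hindbrain gene, had values of 7.70 and 7.72 in FD, against 7.71 and 7.73 in ND, and Hoxb13, a gene of the prostate and the tail, averaged 7.16 ± 0.23 in FD and 7.04 ± 0.09 in ND (SD, n = 2 arrays each). Both had overlapping arrays, with differences of -0.01 and 0.12. They averaged 7.71 and 7.10, below the median of all probe sets, which was 8.11 to 8.19 in the 4 arrays. Hoxc10, Hoxd9 and Hoxa13, given below, also averaged below that median, at 7.71, 7.88 and 7.03. Their arrays did not overlap, with differences of 0.48, -0.39 and -0.33. Other genes below it, such as Hoxa10 and Hoxc11, had overlapping arrays. Whether a shift could be read at such levels was not tested.

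**Figure D2:**
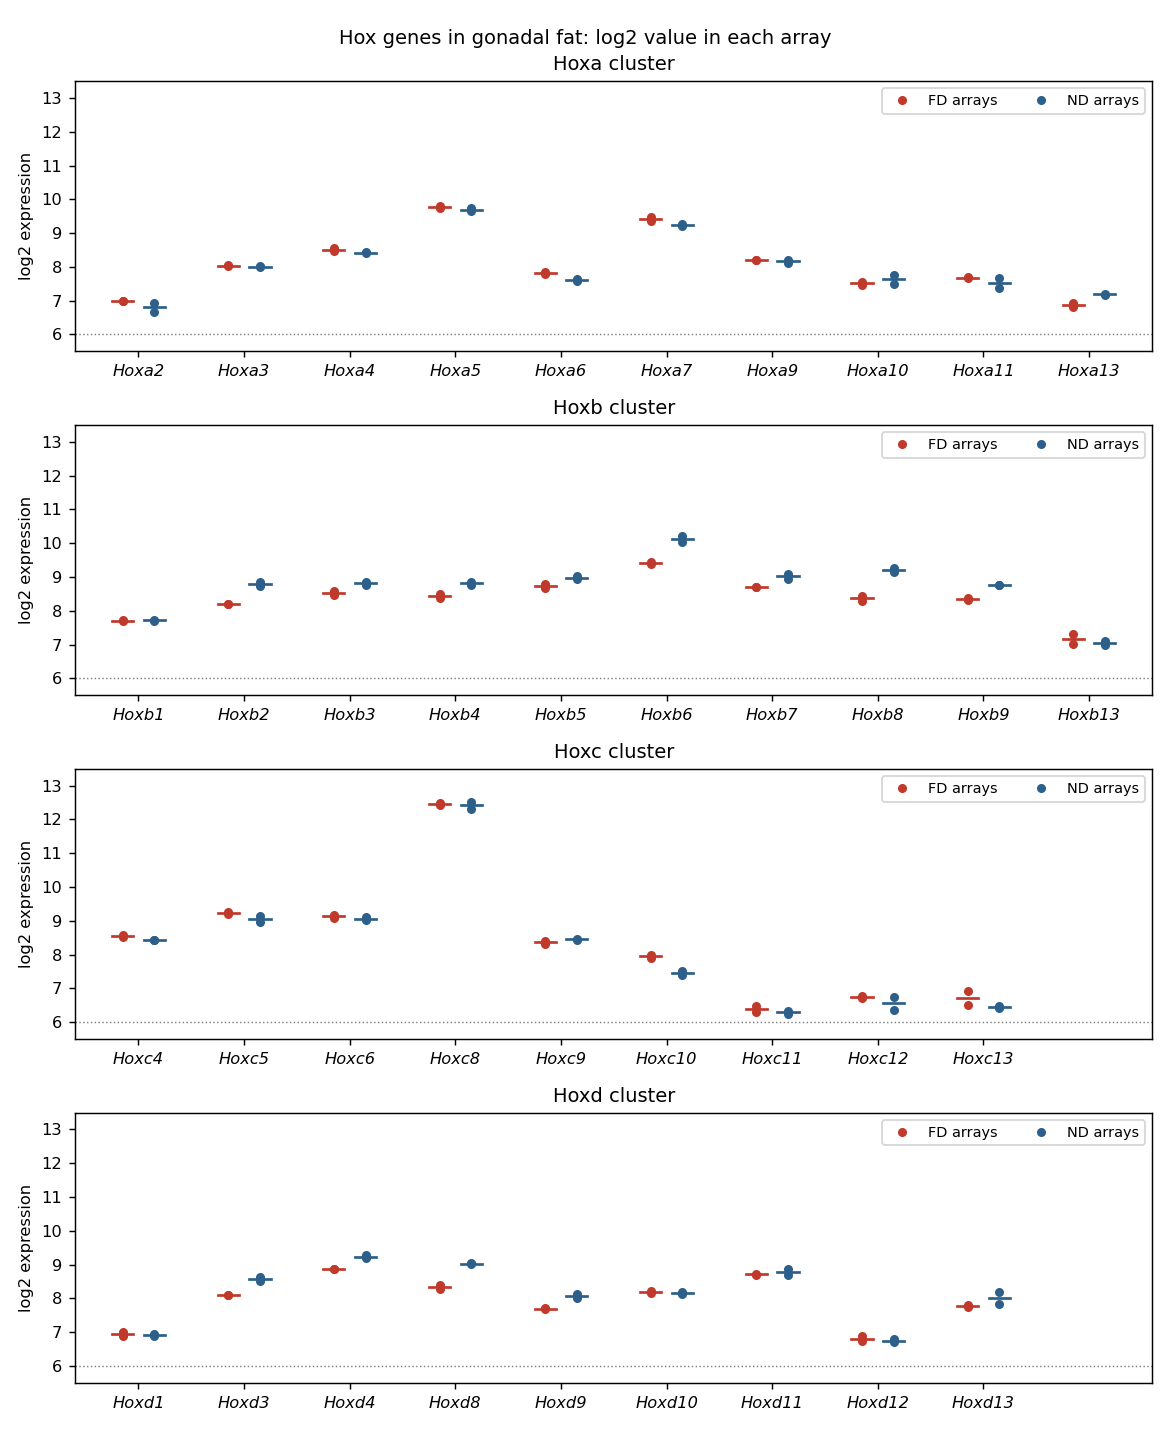
Log2 expression of each Hox gene in each array, in 1 panel for each cluster and in paralog order. Points are arrays, with FD in red left of ND in blue, short bars are the means of the 2 arrays of a pool, and the dotted line is the level of 6. From Hoxb2 to Hoxb9 and from Hoxd3 to Hoxd9 the red points lie below the blue ones, whereas the points of Hoxc8 lie between 12.32 and 12.53 in both diets.

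In the Hoxd cluster, which lacks groups 2, 5, 6 and 7, the 4 genes from Hoxd3 to Hoxd9 lie next to each other and all were at lower values in FD. Hoxd3, needed for the first neck vertebra, had values of 8.10 and 8.09 in the FD arrays, against 8.51 and 8.65 in the ND arrays, a difference of -0.49. Hoxd4, needed for the second neck vertebra, had values of 8.88 and 8.87 in FD, against 9.28 and 9.20 in ND, a difference of -0.37. Hoxd9 had values of 7.68 and 7.70 in FD, against 8.02 and 8.14 in ND, a difference of -0.39. None of these genes had overlapping arrays, and the duplicates in FD differed by at most 0.03 in all 3.

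The shift ended between Hoxd9 and Hoxd10, which are neighbours. Hoxd10, a gene of hindlimb motor neurons, had values of 8.16 and 8.22 in FD, against 8.15 and 8.19 in ND, and its difference was 0.03. Hoxd11 with -0.06 and Hoxd12 with 0.06 also had overlapping arrays, and so did Hoxd1 at the other end of the cluster with 0.03. Of these, Hoxd12 and Hoxd1 averaged 6.78 and 6.93, likewise below the median of all probe sets. Hoxd13, a gene of the digits and the genital tubercle, had values of 7.79 and 7.75 in FD, against 7.85 and 8.19 in ND. Its difference of -0.25 rested on ND array 2, since it was -0.08 without that array.

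In the Hoxa and Hoxc clusters none of the 19 genes was called. Hoxa5, which is expressed in adipocytes and needed for the lung, had values of 9.73 and 9.80 in FD, against 9.73 and 9.66 in ND, a difference of 0.07. The other Hoxa genes of groups 2 to 9 lay between 0.03 for Hoxa9 and 0.21 for Hoxa6. Hoxc8, which in mice represses brown adipocyte genes in white fat progenitors, had values of 12.44 and 12.48 in FD, against 12.32 and 12.53 in ND. These arrays overlapped, with a difference of 0.04. Hoxc4, Hoxc5, Hoxc6 and Hoxc9 lay between -0.08 and 0.17.

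Hoxc10, described in mice as a gene of subcutaneous rather than gonadal fat, had the largest positive difference of the Hox genes. It had values of 7.90 and 7.99 in the FD arrays, against 7.52 and 7.41 in the ND arrays, and its difference of 0.48 was under the threshold of 1.5-fold. Both FD arrays lay above both ND arrays by 0.38 or more. Its neighbours Hoxc9 with -0.08 and Hoxc11 with 0.10 did not share this difference. Hoxc12 and Hoxc13, with 0.19 and 0.27, had duplicates that were 0.39 apart in ND for Hoxc12 and 0.40 apart in FD for Hoxc13.

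Among the genes of groups 10 to 13, which in males pattern the ducts that lead from the testis, Hoxa13 was the one Hoxa gene whose FD arrays lay below its ND arrays. It had values of 6.93 and 6.80 in FD, against 7.21 and 7.17 in ND, a difference of -0.33 that was not called. Hoxa10, which together with Hoxa11 gives the vas deferens its identity, had values of 7.54 and 7.48 in FD, against 7.50 and 7.75 in ND. Hoxa11 had values of 7.67 and 7.69 in FD, against 7.67 and 7.37 in ND. Their differences of -0.12 and 0.16 were smaller than the gaps between the ND duplicates, which were 0.25 and 0.30.

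Set side by side, paralogs of the same number differed by their cluster. In group 8 the differences were -0.84 for Hoxb8 and -0.69 for Hoxd8, against 0.04 for Hoxc8. In group 4 they were -0.37 for Hoxb4 and -0.37 for Hoxd4, against 0.09 for Hoxa4 and 0.12 for Hoxc4. In group 9 they were -0.40 for Hoxb9 and -0.39 for Hoxd9, against 0.03 for Hoxa9 and -0.08 for Hoxc9. In group 6 they were -0.71 for Hoxb6, against 0.21 for Hoxa6 and 0.07 for Hoxc6. Pooled over all clusters, the medians of groups 1 to 4, 5 to 8 and 9 to 13 were -0.01, 0.04 and 0.03. The median was 0.03 over all 38 genes and 0.03 over all probe sets at the level of 6 or more. Each of the pooled class medians changed sign without some array or with another scaling. They mix clusters with differences of opposite sign, so they cannot show whether the class orders the differences within a cluster. In the same order of classes, the medians were -0.33, -0.52 and -0.14 in Hoxb and -0.37, -0.69 (Hoxd8 alone) and -0.06 in Hoxd. They were 0.09, 0.16 and -0.05 in Hoxa and 0.12 (Hoxc4 alone), 0.07 and 0.19 in Hoxc.

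**Figure D3:**
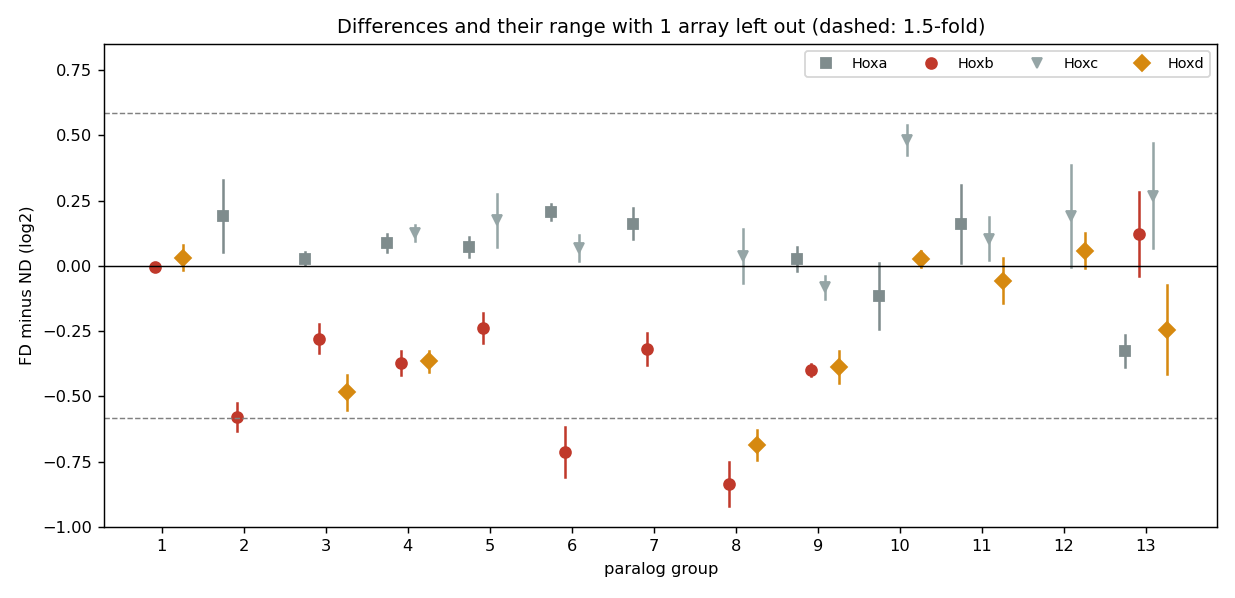
Difference between FD and ND on the log2 scale by paralog group, with a symbol for each cluster. Vertical lines span the values obtained when each of the 4 arrays was left out in turn, and dashed lines mark 1.5-fold. In groups 2 to 9 the Hoxb and Hoxd genes stay at or below -0.18 over their whole range, and the Hoxa and Hoxc genes lie above them in each group.

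By cluster, the median difference was -0.35 in Hoxb and -0.25 in Hoxd, against 0.08 in Hoxa and 0.12 in Hoxc. The median of Hoxd is the value of Hoxd13 and was -0.08 without ND array 2, that of Hoxa was 0.03 without ND array 2 and 0.05 without FD array 2, and that of Hoxc was 0.07 without ND array 1. Arrays did not overlap between FD and ND, with FD lower, in 8 of 10 Hoxb, 5 of 9 Hoxd, 1 of 10 Hoxa and 1 of 9 Hoxc genes, and, with FD higher, in 0 Hoxb, 0 Hoxd, 6 Hoxa and 4 Hoxc genes. Together these are 39.5% of the Hox genes lower and 26.3% higher, beside 27.2% and 36.3% of all probe sets. The median level of the 12 Hoxb and Hoxd genes of groups 2 to 9 was 8.38 and 8.46 in the FD arrays, against 8.90 and 8.90 in the ND arrays. For the 12 Hoxa and Hoxc genes of the same groups it was 8.53 and 8.53 in FD, against 8.44 and 8.44 in ND.

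No gene that flanks the clusters was called. Over all probe sets at the level of 6 or more, 4.28% were called lower and 1.33% higher. A count of 0 among so few genes is near these shares. Of 24 flanking genes, 3 on each side of each cluster in the RefSeq order of GRCm38.p6, 23 were at the level of 6 or more, and their differences had a median of 0.00 and ran from -0.37 for Cbx5 to 0.32 for Smug1, both beside Hoxc, where Calcoco1 had 0.17. Beside Hoxb, Ube2z with -0.22 and Skap1 with -0.21 had FD arrays below the ND arrays and came close to the -0.24 of Hoxb5, while Cbx1 with -0.07 and Ttll6 with 0.08 had overlapping arrays and Snx11 had 0.11. Beside Hoxd the differences lay between -0.14 for Atp5g3 and 0.24 for the homeobox gene Evx2. Evx1, next to Hoxa13, had a difference of 0.24. In the same annotation Hoxb3 overlaps Hoxb4, Hoxd3 overlaps Hoxd4, Hoxd10 overlaps Hoxd11, and Hoxa3 overlaps Hoxa4, Hoxa5 and Hoxa6. Paralogs also resemble each other in the homeobox, so that the values of these genes are uncertain where their probes lie in shared sequence. The probes themselves were not analysed here.

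The clusters also hold microRNA genes. Those of the miR-196 family lie between groups 9 and 10 and repress Hoxb8 and Hoxc8 in mice, and those of the miR-10 family lie beside group 4. Their mature sequences from RefSeq (GRCm38.p6) are shown because Hoxb8, the Hox gene with the largest difference, is the known target of miR-196. Capitals mark the seed, bases 2 to 8, which the 2 members of a family share.
mmu-miR-196a-5p: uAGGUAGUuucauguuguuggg
mmu-miR-196b-5p: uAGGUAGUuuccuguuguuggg
mmu-miR-10a-5p: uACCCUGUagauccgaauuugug
mmu-miR-10b-5p: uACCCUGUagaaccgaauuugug

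The arrays read the transcripts of these genes and not the mature microRNAs. Mir196a-1, between Hoxb9 and Hoxb13, had values of 5.31 and 5.31 in FD, against 5.39 and 5.47 in ND, under the level of 6. Mir196b, between Hoxa9 and Hoxa10, had values of 6.45 and 5.93 in FD, against 6.28 and 6.51 in ND. Mir196a-2, another gene of this family, had values of 5.45 and 5.76 in FD, against 5.63 and 6.07 in ND. Mir10a, beside Hoxb4, had values of 5.36 and 5.88 in FD, against 5.87 and 5.85 in ND, and Mir10b, beside Hoxd4, had values of 5.72 and 5.84 in FD, against 5.74 and 5.78 in ND. For most of these genes the signal was thus too low to be read. Of the 9 measured microRNA, antisense and Evx genes of the clusters, 5 were at the level of 6 or more and none was called. The called shares of all probe sets at that level were 4.28% lower and 1.33% higher. Hoxd3os1, the antisense gene in the Hoxd3 region, had values of 7.19 and 6.85 in FD, against 7.22 and 7.09 in ND.

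Promoter sequences from RefSeq (GRCm38.p6) were available for 22 of the 38 Hox genes, as 300 bases that run from 250 before the start site to 50 after it. They are shown for Hoxb8 and Hoxd8, which were called, for Hoxd4, the other Hox gene with a CDX match, and for Hoxd10, the neighbour at which the shift ended. Capitals mark matches, on either strand, to TTTATNG, the letters of the site of CDX factors, which act upstream of Hox genes in the embryo, or to TGATNNAT, the letters of a site of HOX with PBX. The motifs were chosen after the values had been seen.
Hoxb8, chr11:96281655-96281954, plus strand: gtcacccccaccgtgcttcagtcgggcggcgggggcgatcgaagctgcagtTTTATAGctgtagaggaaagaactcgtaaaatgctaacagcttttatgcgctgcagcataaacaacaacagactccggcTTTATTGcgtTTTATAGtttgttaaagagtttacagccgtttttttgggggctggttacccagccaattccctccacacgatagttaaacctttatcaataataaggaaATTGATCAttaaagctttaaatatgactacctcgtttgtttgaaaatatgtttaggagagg
Hoxd4, chr2:74721728-74722027, plus strand: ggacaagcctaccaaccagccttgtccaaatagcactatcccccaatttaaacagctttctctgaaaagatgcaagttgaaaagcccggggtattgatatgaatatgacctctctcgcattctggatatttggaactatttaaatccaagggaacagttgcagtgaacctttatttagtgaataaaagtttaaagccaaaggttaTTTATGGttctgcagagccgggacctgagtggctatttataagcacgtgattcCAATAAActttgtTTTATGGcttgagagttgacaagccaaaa
Hoxd8, chr2:74704365-74704664, plus strand: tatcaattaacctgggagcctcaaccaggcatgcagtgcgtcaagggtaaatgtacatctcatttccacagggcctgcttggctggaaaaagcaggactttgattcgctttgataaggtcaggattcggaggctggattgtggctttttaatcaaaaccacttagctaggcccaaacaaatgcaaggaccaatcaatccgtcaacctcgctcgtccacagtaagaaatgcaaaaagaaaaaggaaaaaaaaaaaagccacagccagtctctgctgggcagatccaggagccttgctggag
Hoxd10, chr2:74691641-74691940, plus strand: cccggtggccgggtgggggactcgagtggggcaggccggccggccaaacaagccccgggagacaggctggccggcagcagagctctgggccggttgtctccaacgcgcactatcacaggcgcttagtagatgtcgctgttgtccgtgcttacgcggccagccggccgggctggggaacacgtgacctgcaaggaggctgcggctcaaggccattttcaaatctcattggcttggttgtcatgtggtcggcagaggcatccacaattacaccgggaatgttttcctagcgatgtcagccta

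The window of Hoxb8 holds 3 matches to the CDX letters and 1 to the HOX with PBX letters, none of them overlapping, and that of Hoxd4 holds 3 of the CDX letters. Hoxb8 and Hoxd4 were the only 2 of the 22 Hox genes with a CDX match, while the windows of Hoxd8 and Hoxd10 hold none of either kind. The HOX with PBX letters also occurred in windows of Hoxa2, Hoxb1 and Hoxd11, none of which was called, and so in 4 of the 24 Hox windows, or 16.7%, while the CDX letters occurred in 8.33%. Of all 32851 promoter windows of this length, 8.85% hold a HOX with PBX match and 10.9% a CDX match. CpG dinucleotides, which mark the CpG islands that Polycomb occupies at silent Hox genes, numbered 13 in the window of Hoxb8, 6 in that of Hoxd8 and 4 in that of Hoxd4, and 22 in that of Hoxd10. In the same tally Hoxd3 and Hoxd9 of the lower run had 20 each, and Hoxa9, with a difference of 0.03, had 4. The median was 14.5 over the 24 Hox windows and 7 over all windows. The letters of a MEIS site, TGACAG, and of a homeobox core, TAATTA, were searched as well on both strands, and each was found in 2 of the 24 Hox windows, or 8.33%, against 19.2% and 5.29% of all windows. The matches describe these letters only.

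The cofactors of HOX proteins and the Trithorax and Polycomb genes showed no called change. Of all probe sets at the level of 6 or more, 4.28% were called lower and 1.33% higher. In lists of this size 0 calls are near those shares. Of 8 measured genes of the PBX, MEIS and PKNOX factors, none was called, and the largest differences were -0.25 for Pbx3 and 0.25 for Meis3, beside 0.12 for Pknox2 and -0.09 for Pbx2. The median was 0.02. Of 13 genes of the Trithorax side, which keep Hox genes active, none was called and the median was -0.12, with -0.37 for Dpy30, -0.25 for Kmt2c, -0.24 for Ash2l and -0.21 for Wdr5. Of 19 genes of the Polycomb side, which keep them silent, none was called and the median was -0.02, with -0.48 for Mtf2, -0.35 for Phc3, -0.32 for Phf19 and -0.28 for Bmi1. All these medians stand beside 0.03 over all probe sets at the level of 6 or more. The FD arrays lay below the ND arrays in 8 Trithorax and 8 Polycomb genes and above them in 1 and 8. Over all probe sets at that level the shares were 27.2% below and 36.3% above.

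Retinoic acid switches on the head end of the clusters in the embryo. Of 15 genes of its metabolism, receptors and the Cdx factors at the level of 6 or more, 2 were lower and none was higher in FD, with a median of 0.10, beside shares of 4.28% lower and 1.33% higher over all probe sets. Aldh1a1, a retinaldehyde dehydrogenase, had values of 11.46 and 11.41 in FD, against 12.61 and 12.77 in ND, a difference of -1.25. Crabp2, which carries retinoic acid to its receptors, had values of 7.08 and 7.49 in FD, against 8.00 and 8.09 in ND, and its difference of -0.76 was -0.55 and no longer called without FD array 1. The next largest differences were 0.35 for Dhrs3 and -0.34 for Stra6, the receptor for retinol binding protein. The receptor genes Rara, Rarb and Rarg were not called.

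Other transcription factors of position moved in either direction. Of 31 measured at the level of 6 or more, 3 were higher and 1 was lower, with a median of 0.03, beside shares of 1.33% higher and 4.28% lower over all probe sets. Isl1, a factor of the heart and the hindlimb field, had values of 7.94 and 8.19 in FD, against 7.19 and 7.09 in ND, a difference of 0.92. Tbx18, a factor of the mesothelium of the heart and of the ureter wall, had a difference of 0.68, and Tbx5, the forelimb factor, had one of 0.60 that was not called without FD array 2 (0.55) or ND array 2 (0.54). Emx2, a factor of the urogenital tract, had values of 8.42 and 8.41 in FD, against 9.21 and 9.33 in ND, a difference of -0.86 close to that of Hoxb8. Foxf2, at -0.56, was called lower without FD array 2 (-0.60) or ND array 1 (-0.61). Of the genes known to mark subcutaneous fat in mice, Tbx15 and Shox2 were under 6 in all 4 arrays, and En1 had values of 7.28 and 7.46 in FD, against 7.30 and 7.33 in ND.

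Genes of other cell types also differed between the diets. Of all probe sets at the level of 6 or more, 4.28% were lower and 1.33% higher, and the counts below stand beside these shares. Of 11 genes of simple epithelium, 9 were lower and 0 higher in FD, with a median of -1.27. The 9 were Elf3 with -1.70, Krt18 with -1.67, Cdh1 with -1.65, Esrp1 with -1.59, Epcam with -1.38, Cldn1 with -1.27, Krt8 with -1.12, Cldn7 with -0.94 and Grhl2 with -0.79, while Cldn4 had -0.38 and Krt19, which the mesothelial list also holds, had 0.22. The summed linear signal of this list was 7314 to 7499 in FD, against 14123 to 14959 in ND.

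Of 7 factors of the Wolffian duct, 4 were lower, beside 4.28% of all probe sets, none was higher and the median was -0.72. Pax8 had values of 9.52 and 9.59 in FD, against 11.23 and 11.38 in ND, a difference of -1.75. The others were Pax2 with -0.87, Emx2 with -0.86 and Gata3 with -0.72, the last of which was -0.58 and not called without ND array 1. Sox9 had -0.20, and Sox17 with 0.39 and Lhx1 with 0.25 had FD arrays above the ND arrays without being called. The summed linear signal of this list, which shares Emx2 with the factors of position, was 3362 to 3496 in FD, against 6281 to 6448 in ND.

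Of 18 measured genes of the epididymal epithelium, 16 were at the level of 6 or more. Of these, 13 were lower, beside 4.28% of all probe sets at that level, and none was higher. The 13 were Adam7, Defb22, Rnase9, Defb26, Wfdc16, Defb38, Ces5a, Defb28, Wfdc10, Spint4, Lcn12, Spink8 and Lcn5. In 7 of the 13 the FD mean was under 6, so that they reached the level through the ND arrays alone, and no median is given for this list. Among those above it in both diets, Spink8 had values of 11.75 and 11.61 in FD, against 13.17 and 13.21 in ND. Lcn9 with 0.16, Lcn8 with 0.15 and Cst11 with 0.13 were not called, and Gpx5 and Rnase10 were under 6 in all 4 arrays. The summed linear signal was 5240 to 5546 in FD, against 47805 to 48506 in ND. The part of these cells in the differences of the Hox genes was not tested, and since the arrays measure whole tissue, fewer cells of a type and less RNA per cell cannot be told apart.

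Of 10 mesothelial genes, 7 were higher in FD, beside 1.33% of all probe sets, none was lower and the median was 0.88. The 7 were Msln with 1.25, Upk1b with 1.10, Upk3b with 1.07, Muc16 with 1.02, Lrrn4 with 0.92, Gpm6a with 0.83 and Bnc1 with 0.76. The summed linear signal was 11871 to 12038 in FD, against 6814 to 7557 in ND. Of 13 genes of stroma and preadipocytes, 3 were higher, beside 1.33% of all probe sets, none was lower and the median was 0.49. Thy1 had 0.79, Col3a1 had 0.73 and Lum had 0.61, and Pi16, at 0.56, was called higher without FD array 2 (0.61) or ND array 2 (0.68), whereas Dpp4 with -0.12 and Pdgfra with -0.04 had FD arrays below the ND arrays.

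Of 6 genes of smooth muscle none was called, with a median of -0.21. All 6 had FD arrays below the ND arrays, beside 27.2% of all probe sets at the level of 6 or more. Cnn1 with -0.55 and Actg2 with -0.50 were called lower without ND array 1 (-0.59 and -0.61), and Myh11 had -0.25 and Des -0.17. Of the 11 adipocyte genes none was called, with a median of 0.06 and with 0.34 for Plin1, 0.30 for Lep, 0.28 for Cidec and 0.25 for Lipe. The part of these cells in the Hox values was likewise not tested.

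**Figure D4:**
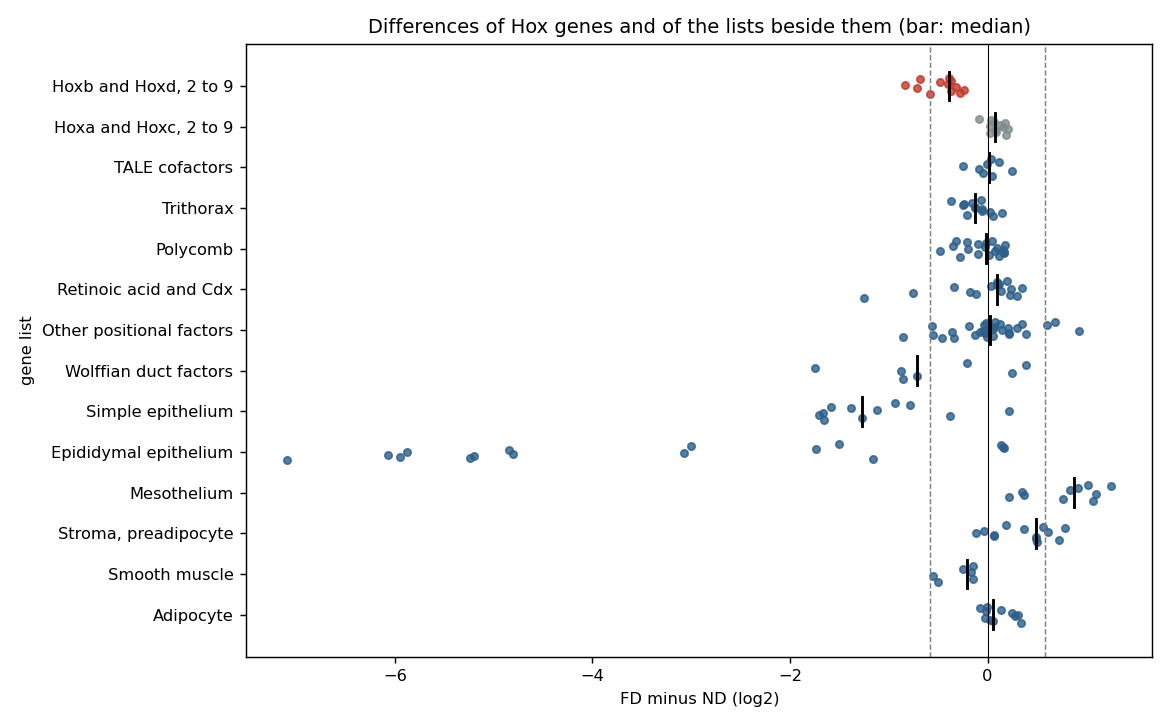
Difference between FD and ND on the log2 scale of the Hoxb and Hoxd genes of groups 2 to 9 (red), of the Hoxa and Hoxc genes of the same groups (grey) and of the lists beside them (blue), for genes that averaged 6 or more. Points are genes, bars are medians (not drawn for the epididymal list) and dashed lines mark 1.5-fold. The red points, with a median of -0.39, all lie below 0. Of the lists, medians lie below 0 in simple epithelium (-1.27), Wolffian duct factors (-0.72), smooth muscle (-0.21), Trithorax (-0.12) and Polycomb (-0.02). They lie above 0 in mesothelium (0.88), stroma (0.49), retinoic acid and Cdx (0.10), adipocyte (0.06), other positional factors (0.03) and HOX cofactors (0.02).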

How the data were processed

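Gonadal WAT RNA of 3 male NMRI mice was pooled for each diet (FD, ND), and each pool was hybridised to 2 Affymetrix mouse gene arrays. The authors deposited log2 expression values made with RMA, named in the submitters' processing notes. The software, its version and the genome build were not given in the sources used here, and no further normalisation was applied. Of 21225 probe sets, 20239 carry 1 gene symbol, 0 carry several and 986 are unnamed here. The symbols of all 38 Hox genes match RefSeq (GRCm38.p6) by Entrez number.

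Differences, medians and calls were computed in Python 3.11.15 with numpy 2.4.6 and pandas 2.3.3, and cyclic loess with limma 3.58.1 in R 4.3.3. Simulated arrays served to check how calls are made. With 1 pool for each diet no p-value was computed, and precision is limited by the number of arrays. The Hox genes and the 14 lists of related genes (209 entries) were chosen with earlier results of these data known, and motifs and the division at groups 2 to 9 after the values had been seen.

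Every Hox gene is accounted for. Values in each array are given for called genes, for genes past 1.3-fold and for the highest of each cluster, and for further members chosen after their values were seen. Of each list, called members and up to 4 with the largest differences are named. Further genes of the lists and of the cluster flanks were chosen after their values were seen. As alternatives, the level filter was dropped or set to 7, with thresholds of 1.3-fold and 2-fold, arrays centred on their medians, cyclic loess, and each array left out in turn.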

Additional observations from a re-analysis of the deposited data

How the results depend on the processing

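The 3 calls of Hoxb6, Hoxb8 and Hoxd8 were made under no filter, the filter at 7, arrays centred on their medians, cyclic loess and without each array (3 to 4 calls). At 1.3-fold 7 genes were lower and 1 higher, and at 2-fold 0 were lower. With an array left out, 0 genes were higher. All 12 Hoxb and Hoxd genes of groups 2 to 9 kept their sign in every alternative, between -0.92 and -0.18 without an array. Since their FD arrays all lay below their ND arrays, only centring and cyclic loess could have changed a sign. Of the 12 Hoxa and Hoxc genes of these groups, 9 kept their sign. With the filter at 7, arrays centred and cyclic loess, the median over all Hox genes was -0.070, 0.072 and -0.028, that of groups 1 to 4 was -0.28, 0.040 and -0.057, that of groups 9 to 13 was -0.070, 0.072 and -0.013, and that of Hoxd was -0.37, -0.20 and -0.29. With arrays centred the medians of Hoxa, Hoxb and Hoxc were 0.13, -0.30 and 0.17. Without an array the medians ranged from -0.014 to 0.014 over all Hox genes, from 0.027 to 0.11 in Hoxa, from -0.36 to -0.33 in Hoxb, from 0.070 to 0.15 in Hoxc and from -0.33 to -0.075 in Hoxd. For groups 1 to 4 they ranged from -0.019 to 0.0038, for groups 5 to 8 from -0.065 to 0.059 and for groups 9 to 13 from -0.0098 to 0.014. The cause of these shifts was not tested. Of 280 recomputed counts of calls in the lists, 264 stayed within 1.5 times, but many of these were counts of 0 that stayed at 0. No paired analysis was possible because the replicate numbers name arrays of 1 pool and the differences come from no test. With 1 pool for each diet, the spread between mice is unknown.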
